A study of Mus musculus with 4 samples.

Results

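Healthy core tissue was compared with healthy penumbra tissue of the mouse brain, that is, the unlesioned counterparts of the pieces that a stroke study took as ischemic core and ischemic penumbra. The comparison uses 4 of the 8 dye channels of 4 two-color arrays, those labelled healthy. The Cy3 channel of core replicate 1 was set against the Cy3 channel of penumbra replicate 3, and the Cy5 channel of core replicate 2 against the Cy5 channel of penumbra replicate 4. The other channel of each array held the ischemic piece of the same name. Donors were male C57BL/6J mice bought at 9 weeks of age. Per the labels, both pieces and both tissue states were taken at 6 h in a model in which the middle cerebral artery was permanently occluded with a filament passed inside the vessel, under sevoflurane, and 1 µl of saline was injected into the ventricle. Whether the healthy pieces were cut from the opposite hemisphere or from separate mice, and which brain structures they held, is not given in the labels. These speak of 3 mice per group and do not say whether RNA was pooled.

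Values are log2 normalized intensities, and differences are healthy core minus healthy penumbra, averaged over the Cy3 and the Cy5 pair, with the SD between the 2 dyes as error. Each dye pair is also a separate pair of arrays, so this SD holds the spread between arrays and cannot be told apart from it. The labels leave unstated whether both arrays of a piece received separate RNA extracts, so each piece counts as 1 replicate and no p-value is given for the comparison. With 2 channels against 2, an exact two-sided permutation test could not give a p below 0.333. Pieces are said not to overlap where both channels of one lay above both channels of the other. Random order alone would give this at the same rate of 0.333, and for a called gene it adds little to the call. The share of all features without overlap was not counted. A gene was called where the mean difference was at least 2-fold (1 log2) and each dye gave at least 1.5-fold in the same direction. Levels of different probes are not compared with each other. Median spot signals in the healthy channels were 214 to 310 against median backgrounds of 64.5 to 71, 76.07% to 78.6% of spots stood well above background in each channel, and no saturated spot was present (0 in each channel).

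As background, the middle cerebral artery supplies the lateral neocortex and much of the striatum. Cortical layers are made of glutamatergic neurons with layer-specific transcription factors and channels, layer 4 being the main target of sensory input from the thalamus. The striatum is built of GABAergic projection neurons that respond to dopamine, either through the D1 receptor (direct pathway) or the D2 receptor (indirect pathway), with sparse cholinergic interneurons. The choroid plexus, inside the ventricles, is an epithelium that makes cerebrospinal fluid, ependymal cells line the ventricles, and the meninges cover the outer surface.

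The healthy core piece carried more mRNA of cortical layer 4 genes and of some meningeal genes, and the healthy penumbra piece carried more mRNA of choroid plexus and striatal neuron genes and of some cholinergic and chemokine genes. All 21 measured oligodendrocyte genes were also lower in core in both dyes, with a median of -0.81 and 2 called. The lists and their members were chosen with earlier results of these data known. Counts and medians of every list below therefore describe the pieces and are not independent evidence of what they held. Of 24899 measured features, 78 were called higher in core (0.313%) and 203 lower (0.815%), together 1.13%. A list with 0 calls is near this share, so its count says little about its members. Among the called features, 62 higher and 153 lower had a gene symbol, and 66 had none and are counted only. In the direction of penumbra, 34 features differed by at least 4-fold, and in the direction of core 0 did. With Agilent's processed signals these counts were 186 and 19, among the latter Tspan11 at 2.42, Scnn1a at 2.06 and Akr1c18 at 2.05, and spike-in scaling gave 3 in the direction of core. Of all features, 93.2% lay within 0.5 log2 of no difference, with a median difference of 0.01 and a median SD between dyes of 0.07. The 2 dyes' differences correlated across features at r = 0.73, where features are not independent replicates. Another 83 features passed 1 log2 in Cy3 with less than 0.5 in Cy5, and 164 passed in Cy5 with less than 0.5 in Cy3. Scaling to spike-in control transcripts raised the median difference to 0.13, and the share of called features that were lower in core changed from 72.2% to 55.9% (131 higher, 166 lower). The processed signals, to which no offset is added, gave 225 higher and 669 lower. The Cy5 channels alone (without core replicate 1 and penumbra replicate 3) gave 87 higher and 372 lower.

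**Figure D1:**
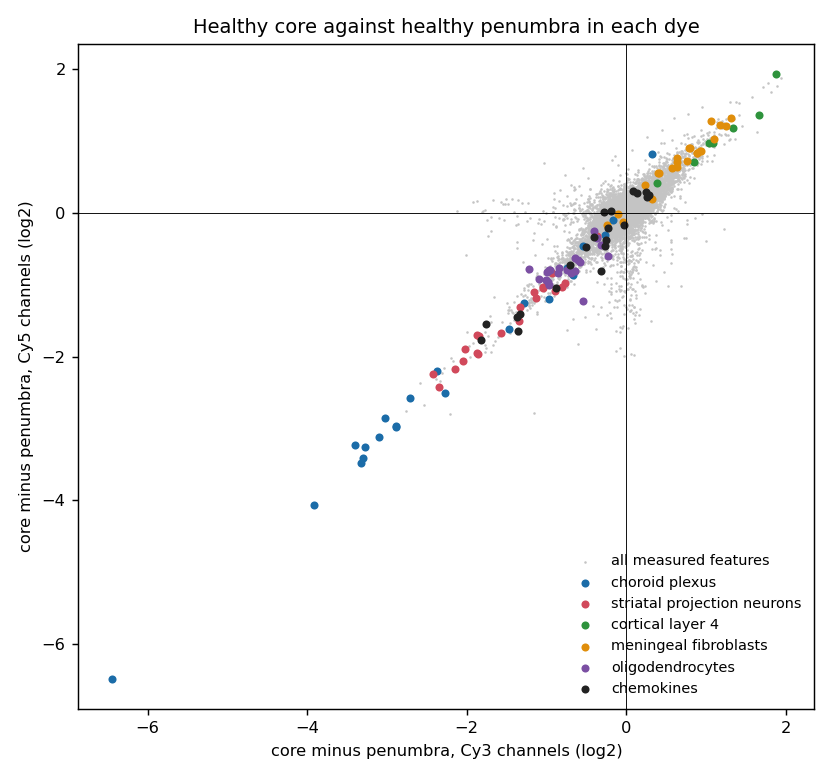
Healthy core minus healthy penumbra in log2 units, with the Cy3 pair on the horizontal and the Cy5 pair on the vertical axis. Each grey point is 1 of the 13871 measured features with a gene symbol, and colored points are members of 6 gene lists. Points of the choroid plexus list reach -6.46 and layer 4 points reach 1.90. Grey arms along each axis are features that differed in 1 dye pair only, which is also 1 pair of arrays.

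The choroid plexus list stood lowest. Ttr, the thyroid hormone carrier that choroid plexus epithelium secretes, had 6.34 in both core channels and 12.79 and 12.81 in the penumbra channels. The pieces did not overlap, and the difference was -6.46 ± 0.02 log2 (88.2-fold), or -8.57 with processed signals. Kcne2, a potassium channel beta subunit of this epithelium, had 6.65 and 6.67 in core and 9.97 and 10.15 in penumbra, a difference of -3.40 ± 0.11. Aqp1, the water channel of its apical membrane, had 7.42 and 7.61 in core and 10.44 and 10.46 in penumbra (-2.94 ± 0.13). With processed signals Kcne2 was at -4.75 and Aqp1 at -3.49. Every one of these penumbra channels lay above every core channel by more than the spread between dyes. In bulk tissue, fewer cells of a type and less RNA per cell cannot be told apart.

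Of 26 choroid plexus entries, 23 were measured and 3 (Slc4a5, Kcnj13 and Mfrp) were not matched by symbol. Of the measured members, 16 were called lower and 0 higher, 22 were below 0 in both dyes, and the median was -2.39 (-3.77 with processed signals) beside 0.01 over all features. Of all 24899 features, 7985 were below 0 in both dyes and 10200 above. Secreted proteins and receptors among them were Ecrg4, a secreted peptide precursor, at -3.99 ± 0.10, the folate receptor Folr1 at -3.32 ± 0.12, Kl (Klotho, the FGF23 co-receptor) at -2.93 ± 0.06, and Sostdc1, a BMP and Wnt antagonist, at -2.29 ± 0.12. The epithelial keratin Krt18 was at -3.27 ± 0.01 and the chloride channel protein Clic6 at -3.36 ± 0.08. A second probe of Folr1 gave -1.07 and a second probe of Clic6 gave -2.22, in the same direction. Steap1 was at -3.11 ± 0.01 and Wfdc2, a secreted protein with a whey acidic protein domain, at -2.92 ± 0.05 (-4.38 with processed signals).

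Another 5 called members were well above background only in penumbra, so they entered the comparison through that piece and have only a bound in core. The tight junction protein Cldn2 was at least 5.22-fold lower in core, Calml4, a calmodulin-like protein, at least 6.13-fold, the homeobox factor Otx2 at least 2.77-fold, coagulation factor F5 at least 2.36-fold and Tmem72 at least 1.79-fold, the last not called without core replicate 2 and penumbra replicate 4. With only features well above background in all 4 healthy channels, 11 members of the list were called. The 7 measured members that were not called ranged from -0.98 to 0.57. Enpp2, the lysophospholipase autotaxin, was at -0.98 ± 0.01, the prolactin receptor Prlr at -0.76 ± 0.14, the ion channel Trpv4 at -0.75 ± 0.02, Cab39l at -0.51 ± 0.06, the sulfate transporter Slc13a4 at -0.29 ± 0.03, and the collagen Col8a1 at -0.13 ± 0.05. Krt8, the partner of Krt18, was at 0.57 ± 0.35 by its brighter probe, while its other probe gave -1.76, so its direction is not settled.

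Of the measured ciliary genes of the ependyma, 7.14% were called, beside 1.13% of all features. Of 23 entries 14 were measured and 9 were not matched by symbol, 1 was called lower, 11 were below 0 in both dyes and 1 above, and the median was -0.59. Dnah11, at -0.77 ± 0.11 (-3.80 with processed signals), was well above background only in penumbra. Processed signals gave 4 called members and spike-in scaling 0. Dynlrb2, a dynein light chain, had 9.19 and 9.37 in core and 10.38 and 10.35 in penumbra (-1.09 ± 0.14), a call that ended without core replicate 1 and penumbra replicate 3. Foxj1, the master transcription factor of motile cilia, had 8.67 and 8.63 in core and 9.55 and 9.32 in penumbra (-0.79 ± 0.13) and was not called. Pifo, a protein of cilium assembly, was at -0.91 ± 0.08, or -2.77 with processed signals, and was well above background in only 1 core channel. The tektin Tekt1 was at -0.46 ± 0.14 and Tekt4 at 0.21 ± 0.00.

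Motile cilium genes are known targets of RFX factors, which bind the X-box. The letters GTTGCC on either strand, one arm of that box, were searched in the 250 bases before each start in RefSeq promoters (GRCm38.p6). They were present in 5 of the 11 measured ciliary members with a promoter (45.5%) and in 11.8% of 27025 genes. The windows of 3 members are shown because these members differed in the size of the difference, with every match in capitals. A match is a description of letters and not a site shown to be bound.
Dynlrb2 (chr8:116504944-116504989, plus strand): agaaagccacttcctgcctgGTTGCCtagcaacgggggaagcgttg
Pifo (chr3:106001498-106001529, minus strand): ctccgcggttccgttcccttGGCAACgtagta
Tekt1 (chr11:72361892-72361937, minus strand): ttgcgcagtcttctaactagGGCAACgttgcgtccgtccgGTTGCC
For the choroid plexus, the letters TAATCC of the Otx motif on either strand were present in 1 of 18 members with a promoter (5.56%), Otx2 itself, and in 7.21% of all genes.

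Striatal projection neuron genes formed the other large set lower in core. Drd2, the D2 dopamine receptor of indirect pathway neurons, had 9.54 and 9.57 in core and 11.87 and 11.91 in penumbra, a difference of -2.33 ± 0.00 (5.03-fold). Drd1, the D1 receptor of direct pathway neurons, had 10.81 and 10.75 in core and 12.76 in both penumbra channels (-1.98 ± 0.04). Rgs9, a GTPase-activating protein that shortens signals of these receptors, had 11.89 in both core channels and 14.31 and 14.13 in penumbra (-2.33 ± 0.12). All 3 were well above background in core, and the pieces did not overlap for any of them.

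Of 24 entries for striatal projection neurons, 21 were measured and Rasd2, Scn4b and Syndig1l were not matched by symbol. Of the measured members 16 were called lower and 0 higher, all 21 were below 0 in both dyes, and the median was -1.43. Signaling enzymes and their regulators among them were the phosphodiesterase Pde10a (-1.92 ± 0.08), the G protein subunit Gng7 (-1.91 ± 0.06), Ppp1r1b (DARPP-32, the phosphatase inhibitor switched by dopamine, -1.78 ± 0.12), the adenylyl cyclase Adcy5 (-1.62 ± 0.07) and Pde1b (-1.16 ± 0.04). Transcription factors were Rxrg (-2.39 ± 0.05), Rarb (-1.96 ± 0.09), Meis2 (-1.12 ± 0.03) and Bcl11b (-1.04 ± 0.01). Spike-in scaling ended the calls of Meis2 and Bcl11b and left 13 called members, and median centring ended that of Bcl11b and left 14. Foxp1, which cortical neurons also express, was at -0.35 ± 0.03 and was not called.

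Both output pathways were represented. In the direct pathway list 4 of 8 members were called lower, among them Tac1, the precursor of substance P, with 11.13 and 11.18 in core and 13.29 and 13.24 in penumbra (-2.11 ± 0.08). The orphan transporter Slc35d3 was at -2.22 ± 0.08 and the homeobox factor Isl1 at -1.72 ± 0.02 (-2.77 with processed signals). Pdyn, the precursor of dynorphin, was at -0.80 ± 0.01 and was not called. In the indirect pathway list 3 of 4 measured members were called lower, and Sp9 and Gpr52 were not matched by symbol. The receptor Gpr6 was at -1.75 ± 0.12 and Penk, the precursor of enkephalin, at -1.25 ± 0.18, with a second probe at -2.06.

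A few defining genes of these neurons were not called. Adora2a, the adenosine receptor of indirect pathway neurons, had 11.96 and 12.00 in core and 12.23 and 11.88 in penumbra, so the pieces overlapped (-0.07 ± 0.28). Chrm4, the muscarinic receptor of direct pathway neurons, had 7.34 and 7.43 in core and 7.44 and 7.41 in penumbra (-0.05 ± 0.08), also with overlap. Adora2a was read by 1 probe.

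Of the cholinergic genes, 2 were called lower in core. Slc5a7, the high-affinity choline transporter, had 7.65 and 7.86 in core and 9.85 and 9.87 in penumbra (-2.11 ± 0.13). Lhx8, the homeobox factor that specifies forebrain cholinergic neurons, had 7.78 and 7.79 in core and 10.31 and 10.46 in penumbra (-2.60 ± 0.09). Of 7 entries 6 were measured, and 0 of the other 4 were called, with Zic4 at 0.07 ± 0.03 and Gbx2 at -0.38 ± 0.02. Gbx2 was at -1.82 with processed signals and was well above background in only 1 core channel. Processed signals gave 4 called members. Chat, the enzyme that makes acetylcholine, had 6.47 and 6.66 in core and 6.95 and 6.90 in penumbra (-0.36 ± 0.17), and Slc18a3, the vesicular acetylcholine transporter, was at -0.28 ± 0.02 (-1.20 with processed signals). The levels of both were near the lowest signal that counted as well above background, 5.66 to 6.14 in the 4 channels. Slc10a4, a vesicular protein of cholinergic and monoaminergic neurons that was entered in the midbrain dopamine list, was at -2.75 ± 0.00. Of that list's 9 measured members it was the only one called. Th, the rate-limiting enzyme of dopamine synthesis, had 7.59 and 7.77 in core and 8.56 and 8.69 in penumbra (-0.94 ± 0.04, or -1.30 with processed signals). The dopamine transporter Slc6a3 was at -0.17 ± 0.26 (-0.56 with processed signals). Processed signals gave 2 called members of the midbrain dopamine list.

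In the list of dopamine receptors and their cAMP signaling, 9 of 19 members were called lower, with a median of -0.91. All 9 also belong to the striatal lists, so this is not a separate count. Outside those lists, the phosphodiesterase Pde7b was at -0.76 ± 0.02. The D1-like receptor Drd5 was at -0.50 ± 0.07, Drd3 at -0.02 ± 0.17 and Drd4 at 0.33 ± 0.10. Adora1, the adenosine receptor found across the forebrain, was at 0.39 ± 0.10.

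Called retinoic acid genes lay on both sides. Retinoic acid is made by Aldh1a enzymes, carried by Crabp proteins and sensed by Rar and Rxr receptors. Aldh1a2, the enzyme made by meningeal cells, had 10.90 and 11.13 in core and 9.59 and 9.82 in penumbra and was higher in core (1.31 ± 0.00). Crabp1, a carrier, had 7.04 and 7.05 in core and 8.62 and 8.72 in penumbra and was lower (-1.63 ± 0.06, or -2.38 with processed signals). The receptors Rxrg and Rarb were lower as given above, whereas Rara (-0.11 ± 0.03), Rxra (-0.09 ± 0.08) and Rxrb (-0.07 ± 0.11) were not called. Stra6, the retinol uptake receptor, was called lower at -1.07 ± 0.58 with the widest spread between dyes in the list, and its call ended with median centring, with spike-in scaling and without core replicate 2 and penumbra replicate 4. Of 17 members 1 was called higher and 4 lower.

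The healthy core piece was higher in genes of cortical layer 4. Rorb, the nuclear receptor that patterns layer 4, had 11.56 and 11.12 in core and 9.89 and 9.76 in penumbra, a difference of 1.51 ± 0.22 (2.85-fold). Scnn1a, a sodium channel subunit used as a layer 4 driver, had 10.69 and 10.77 in core and 8.82 and 8.84 in penumbra (1.90 ± 0.04). Rspo1, a Wnt pathway activator, had 12.42 and 12.28 in core and 11.08 and 11.10 in penumbra (1.26 ± 0.11). Every core channel lay above every penumbra channel for each of these. All 7 entries were measured, 5 were called higher and 0 lower, all were above 0 in both dyes, and the median was 1.03. Whrn was at 1.03 ± 0.08 and the potassium channel Kcnh5 at 1.00 ± 0.04, both at the border of the call. With the Cy5 channels alone (without core replicate 1 and penumbra replicate 3) both missed the call, and 3 members were called.

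**Figure D2:**
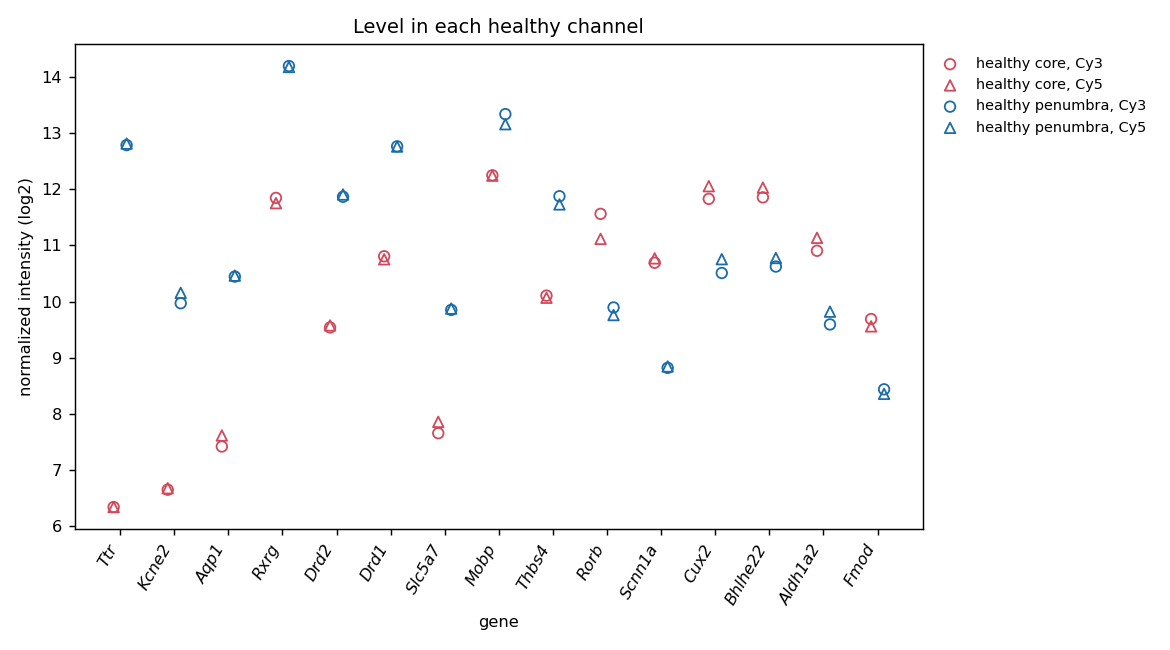
Normalized intensity in log2 units of 15 named genes in each healthy channel. Red symbols are healthy core and blue symbols healthy penumbra, circles are Cy3 and triangles Cy5. From Ttr to Thbs4 both penumbra channels lie above both core channels, and from Rorb to Fmod both core channels lie above.

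Lists of the other cortical layers had medians near 0. In the list for layers 2 and 3, 2 of 8 members were called higher, the homeobox factor Cux2 (1.31 ± 0.01) and Stard8 (1.15 ± 0.20), with a list median of -0.01. Cux2 is also expressed in layer 4. Cux1 was at -0.12 ± 0.91, with 11.89 and 13.32 in core and 12.66 and 12.79 in penumbra, so its 2 dye pairs pointed in opposite directions. The ischemic channels gave 11.74 on the array of core replicate 1 and 13.22 on that of core replicate 2. Each lay near the healthy value of the same array. The 3 probes of Cux1 ranged from -0.12 to 0.83. The 14 measured layer 5 genes gave 0 calls and a median of 0.04. Fezf2, the factor that specifies subcerebral projection neurons, had 10.99 and 11.17 in core and 11.01 and 11.08 in penumbra (0.03 ± 0.08). The 11 measured layer 6 and subplate genes gave 0 calls and a median of -0.20, ranging from Foxp2 at -0.92 ± 0.04 to Osr1 at 0.63 ± 0.01. Foxp2, like Crym (-0.97 ± 0.03) and Pcp4 (-0.58 ± 0.04) in the layer 5 list, is also expressed in striatal neurons.

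Of the markers common to cortical glutamatergic neurons, 6.67% were called, beside 1.13% of all features. Of 15 members 1 was called higher, 13 were above 0 in both dyes and 0 below, and the median was 0.49. Bhlhe22, a transcription factor of upper-layer identity, had 11.86 and 12.03 in core and 10.62 and 10.77 in penumbra (1.24 ± 0.01). Slc17a7, the vesicular glutamate transporter VGLUT1, had 13.50 and 13.60 in core and 13.13 and 13.12 in penumbra (0.42 ± 0.07). Neurod1 was at 0.96 ± 0.01 and Mef2c at 0.68 ± 0.07. The 12 measured interneuron genes gave 0 calls and a median of 0.29. Pvalb, the calcium buffer of fast-spiking interneurons, was at 0.89 ± 0.02, and Sst, the somatostatin precursor, at -0.10 ± 0.14. Among genes of GABAergic neurons at large, Gad2 was at -0.55 ± 0.10 and Gad1 at 0.08 ± 0.11, and 0 of 7 were called.

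Single genes of other lists were also higher in core. Nr4a2, a nuclear receptor of claustrum and deep-layer neurons, had 13.78 and 13.45 in core and 12.52 and 12.36 in penumbra (1.17 ± 0.12), the only call among 6 claustrum and endopiriform genes. Slc17a6, the vesicular glutamate transporter VGLUT2, had 12.12 and 12.60 in core and 10.77 and 11.30 in penumbra (1.33 ± 0.03). None of the other 8 measured thalamic genes was called, from Tcf7l2 at -0.26 ± 0.07 (3 probes, from -0.26 to 0.01) to Rora at 0.56 ± 0.15. In that list 5 genes were above 0 in both dyes and 4 below. Cartpt, a neuropeptide precursor entered in the hypothalamus list and also made in cortex, had 11.89 and 12.09 in core and 10.51 and 10.55 in penumbra (1.46 ± 0.12). The hypothalamic peptides Pomc (0.00 ± 0.11), Hcrt (0.12 ± 0.01) and Oxt (0.24 ± 0.11) were not called.

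Lists for distant structures gave at most 1 call each. That was 20% of the measured lateral septum, 14.3% of the hippocampal and 10% of the subventricular genes, beside 1.13% of all features. Nts, the neurotensin precursor entered under the lateral septum, had 8.81 and 8.80 in core and 11.18 and 11.11 in penumbra (-2.34 ± 0.05), and it was the only call among that list's 5 measured members. Spink8 (-1.11 ± 0.03) was the only call among 7 hippocampal genes, and spike-in scaling ended it, while Prox1, the dentate gyrus factor, was at -0.14 ± 0.04. Of 8 Hox genes of the hindbrain and spinal cord 5 were not well above background in either piece, and 0 of the other 3 were called. Of 6 cerebellar genes 2 were not well above background, among them Gabra6, and 0 of the other 4 were called. In the subventricular list 1 of 10 measured genes was called lower, Cd24a (-1.02 ± 0.10, not called without core replicate 1 and penumbra replicate 3, with median centring or with spike-in scaling), which ependymal cells also express. Dcx, the microtubule protein of neuroblasts, was at 0.32 ± 0.03 by its brightest probe. Its 3 probes ranged from -0.09 to 0.32, so its direction is not settled.

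**Figure D3:**
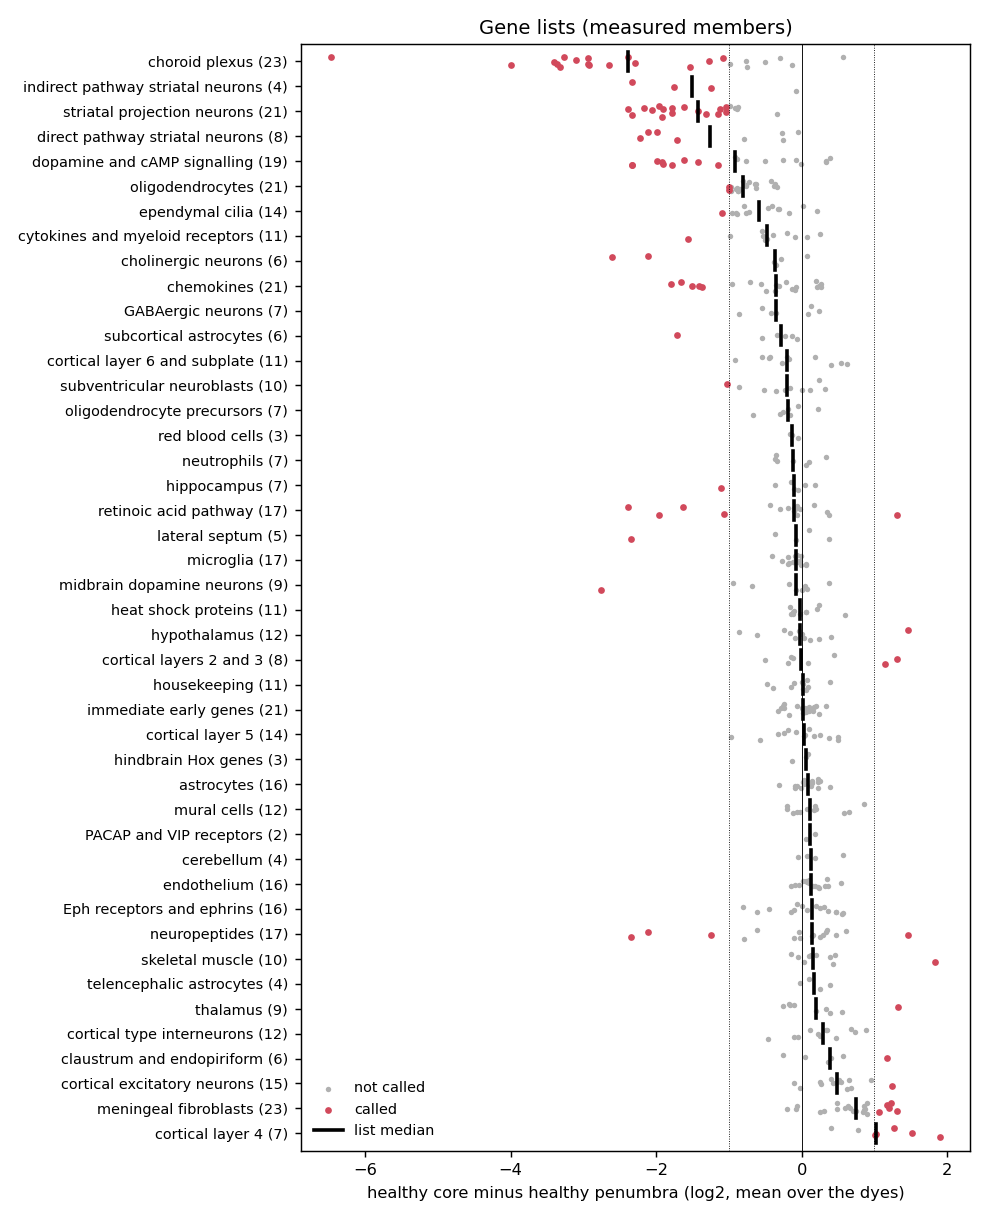
Healthy core minus healthy penumbra in log2 units (mean over the dyes) for the measured members of 44 gene lists, ordered by list median, with the number measured in brackets. Red points were called, grey points were not, black bars are medians and dotted lines mark 1 log2. Choroid plexus lies at one end with a median of -2.39 and cortical layer 4 at the other with 1.03.

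Some genes of the meninges were higher in core. Aldh1a2 is given above. Fmod, a small collagen-binding proteoglycan, had 9.69 and 9.56 in core and 8.44 and 8.35 in penumbra (1.23 ± 0.04). Col3a1, a fibrillar collagen, had 9.46 and 9.57 in core and 8.29 and 8.35 in penumbra (1.20 ± 0.03). The organic anion transporter Slc22a6 was at 1.17 ± 0.15 and Slc47a1 at 1.06 ± 0.05. A second probe of Slc47a1 gave 0.52, and its call ended with the mean over probes. The pieces did not overlap for any of these 5. All 23 entries were measured, 5 were called higher and 0 lower, 20 were above 0 in both dyes and 3 below, and the median was 0.74. Among the members not called were Igf2 (-0.08 ± 0.06) and Bmp7 (0.31 ± 0.11). Spike-in scaling gave 9 called members. Mesothelin (Msln), outside the list, was at 1.47 ± 0.07.

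Vessel wall genes gave 0 calls, which is near the 1.13% called among all features. The 16 measured endothelial genes gave 0 calls and a median of 0.13, Cldn5, the tight junction protein of the blood-brain barrier, being at -0.09 ± 0.10. The 12 measured mural cell genes gave 0 calls and a median of 0.12, and the largest difference was that of the smooth muscle protein Cnn1 at 0.86 ± 0.09. Tcap, a sarcomere protein that was entered as a skeletal muscle gene, had 11.27 and 11.23 in core and 9.38 and 9.46 in penumbra (1.83 ± 0.09). The other measured muscle genes did not pass, with Acta1 at 0.39 ± 0.06, Mylpf at -0.15 ± 0.05 and Ckm not well above background. Hemoglobin Hba-a1 was at -0.13 ± 0.01.

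Of the measured oligodendrocyte genes, 9.52% were called, beside 1.13% of all features. Mobp, a myelin protein, had 12.25 and 12.24 in core and 13.34 and 13.16 in penumbra (-1.003 ± 0.12). Mog had 9.35 and 9.19 in core and 10.35 and 10.12 in penumbra (-0.97 ± 0.05) and missed the call by little. Of 24 oligodendrocyte entries 21 were measured, all 21 were below 0 in both dyes, the median was -0.81, and 2 were called, Mobp and Hapln2 (-1.001 ± 0.31). Quantile normalization of the healthy channels alone left 1 call, and median centring and spike-in scaling left 0. The median stayed below 0 under every scaling, at -0.65 with spike-in scaling. Mbp, an abundant myelin mRNA, was at -0.38 ± 0.09 by its brightest probe, and its 3 probes ranged from -0.88 to -0.38. Precursor genes were closer to 0, with Pdgfra at -0.26 ± 0.11 (0.03 by its other probe) and a list median of -0.18.

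General astrocyte genes and microglia genes gave 0 calls, which is near the 1.13% called among all features. Astrocyte genes (16 measured) had a median of 0.08, from Sox9 at -0.31 ± 0.04 to Fgfr3 at 0.39 ± 0.15. The 3 probes of Sox9 ranged from -0.31 to 0.03, and the 3 of Fgfr3 from 0.11 to 0.39. Gfap, the intermediate filament of reactive and white matter astrocytes, was at -0.06 ± 0.13. Thbs4, a thrombospondin entered under subcortical astrocytes, had 10.10 and 10.07 in core and 11.88 and 11.73 in penumbra (-1.72 ± 0.08), and Agt, the angiotensinogen precursor, was at -0.54 ± 0.02. The 17 measured microglia genes gave 0 calls and a median of -0.08, P2ry12, the receptor of resting microglia, being at -0.08 ± 0.07.

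Chemokine genes were lower in healthy core than in healthy penumbra for some members. Ccl4, an attractant of monocytes and T cells, had 6.94 and 6.90 in core and 8.76 and 8.67 in penumbra, a difference of -1.79 ± 0.04 (3.47-fold), or -2.60 with processed signals. Ccl12, a CCR2 ligand, had 7.82 and 8.10 in core and 9.57 and 9.65 in penumbra (-1.66 ± 0.14). Cxcl1, a CXCR2 ligand that attracts neutrophils, had 7.27 and 7.24 in core and 8.63 and 8.89 in penumbra (-1.50 ± 0.21). The pieces did not overlap for any of them. The monocyte attractant Ccl2 was at -1.41 ± 0.06 and Ccl3, partner of Ccl4, at -1.37 ± 0.06. Of 23 entries 21 were measured, with Cxcl9 and Cxcl13 not well above background, 5 were called lower and 0 higher, and the median was -0.36. Agilent's processed signals gave 9 called members. The chemokines that resting brain cells make, Cx3cl1 (-0.08 ± 0.15) and Cxcl12 (-0.14 ± 0.21), were not called.

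Other inflammatory genes were measured beside them. Gpr84, a fatty acid receptor of myeloid cells, had 7.28 and 7.16 in core and 8.76 and 8.79 in penumbra (-1.56 ± 0.11), the only call among 11 measured cytokines and myeloid receptors, whose median was -0.47. Processed signals gave 5 called members of that list, with Gpr84 at -2.20. Tlr2, which senses bacterial lipoproteins, was at -0.98 ± 0.08, Il6 at -0.54 ± 0.08 and Tnf at -0.47 ± 0.01. With processed signals they were at -1.58, -2.07 and -2.13. The 7 measured neutrophil genes gave 0 calls and a median of -0.12, and S100a9, an abundant neutrophil protein, was at -0.37 ± 0.04. The 21 measured immediate early genes gave 0 calls and a median of 0.02 (Fos -0.24 ± 0.12, Arc 0.15 ± 0.10), and heat shock genes a median of -0.02 with 0 of 11 called (Hspa1b 0.59 ± 0.14, Hspb1 -0.15 ± 0.03). Hspa1b has a nearly identical copy, so its own value is uncertain.

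Chemokine promoters are known to carry kappaB sites, which NF-kappaB binds. The letters GGG and TTTCC with any 2 bases between them, on either strand, were present in the 250 bases before the start of 3 of 14 measured chemokines with a promoter (21.4%) and in 1.65% of 27025 genes. Windows are shown for the called Cxcl1 and, for comparison, its neighbor Cxcl2 (-0.56 ± 0.35, not called), with every match in capitals.
Cxcl1 (chr5:90891154-90891203, plus strand): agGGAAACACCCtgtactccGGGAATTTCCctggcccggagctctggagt
Cxcl2 (chr5:90903782-90903831, plus strand): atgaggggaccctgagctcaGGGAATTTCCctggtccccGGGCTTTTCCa
Each window held 2 matches. With processed signals Cxcl1 was at -2.10 and Cxcl2 at -2.45 ± 0.98. Ccl12 and Ccl3, the other called chemokines with a promoter in the tables, had no match in this window, which says only that these letters were not there.

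**Figure D4:**
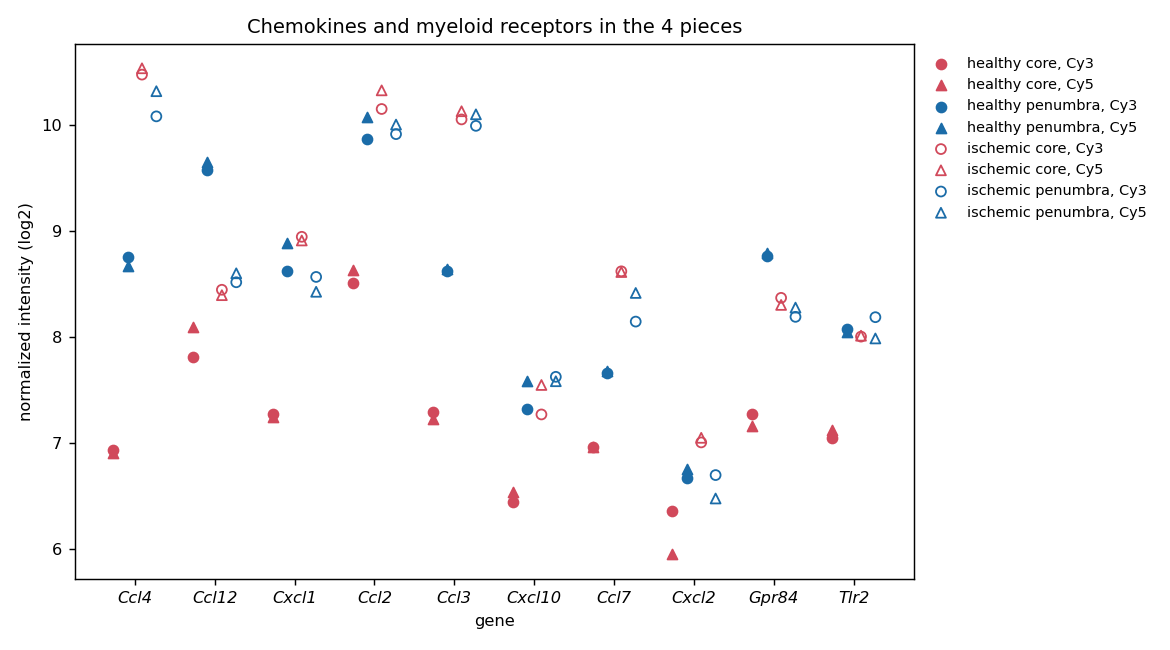
Normalized intensity in log2 units of 8 chemokines, Gpr84 and Tlr2 in all 8 channels. Filled symbols are healthy and open symbols ischemic pieces, red is core and blue penumbra, circles are Cy3 and triangles Cy5. For Ccl4 healthy core lies lowest at 6.94 and 6.90, healthy penumbra between at 8.76 and 8.67, and both ischemic pieces at 10.08 or above.

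The ischemic pieces, which shared the arrays with the healthy ones, gave the same kind of difference for the anatomical genes. Ischemic core minus ischemic penumbra was -7.16 for Ttr, -1.96 for Rgs9, -1.59 for Drd1, -2.50 for Lhx8, 1.41 for Rorb, 1.32 for Scnn1a and -0.96 for Mobp. The choroid plexus list had a median of -3.14 in the ischemic and -2.39 in the healthy pieces, the striatal projection list -1.23 and -1.43, and the layer 4 list 0.98 and 1.03. Meningeal genes had a median of 0.25 in the ischemic pieces against 0.74 in the healthy ones, with Col3a1 at 0.32 against 1.20. None of these differences between tissue states was tested.

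Chemokine differences were near 0 or reversed in the ischemic pieces, a contrast that was not tested. Ccl4 had 10.48 and 10.54 in ischemic core and 10.08 and 10.32 in ischemic penumbra (0.31 ± 0.13). Ccl12 had 8.45 and 8.40 in ischemic core and 8.52 and 8.60 in ischemic penumbra, so both were below its level in healthy penumbra (9.57 and 9.65). Gpr84 likewise had 8.37 and 8.30 in ischemic core and 8.19 and 8.28 in ischemic penumbra, below 8.76 and 8.79 in healthy penumbra. The chemokine list had a median of 0.23 in the ischemic pieces against -0.36 in the healthy ones.

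**Figure D5:**
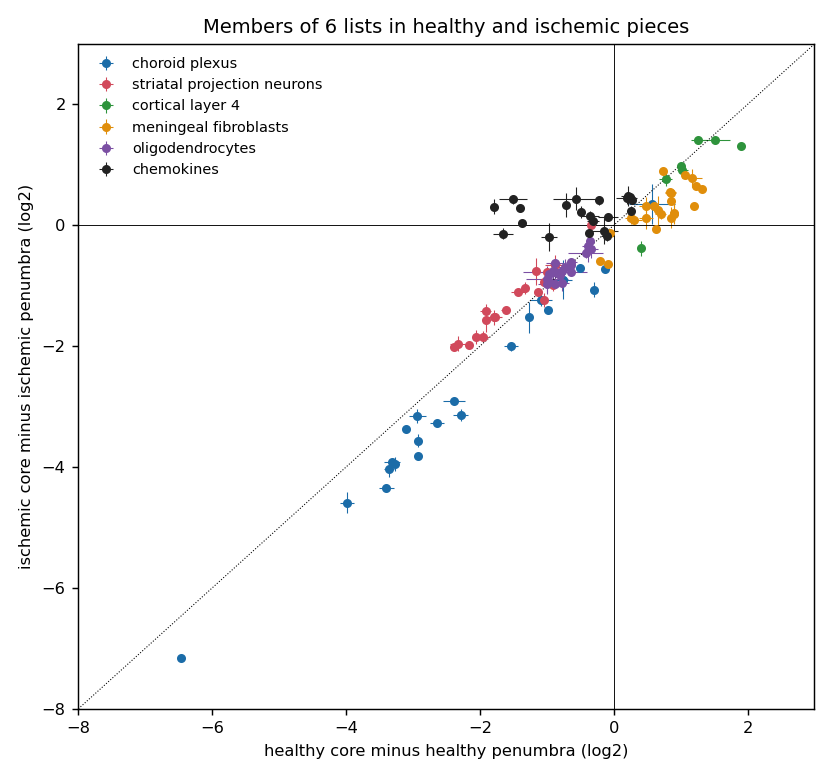
Members of 6 gene lists, with healthy core minus healthy penumbra on the horizontal axis and ischemic core minus ischemic penumbra on the vertical axis, in log2 units. Bars are SDs between the 2 dyes, and the dotted line marks equal differences. Choroid plexus points lie below the line, chemokines such as Ccl4 (-1.79 and 0.31) lie above it.

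Some thalamic, septal and peptide genes were not called in the healthy pieces and stood apart in the ischemic ones. Prkcd, a kinase of thalamic neurons, had 10.21 and 10.39 in healthy core and 10.41 and 10.52 in healthy penumbra, but 10.10 and 9.91 in ischemic core and 11.65 and 11.70 in ischemic penumbra (-1.66 ± 0.17). Zic1 was at -0.36 ± 0.01 in the healthy and -1.12 ± 0.10 in the ischemic pieces. Agt was at -0.54 ± 0.02 and -1.42 ± 0.07, and Avp, the vasopressin precursor, at 0.40 ± 0.02 and -0.88 ± 0.07. These values came from 1 replicate of each piece, and the contrast between states was not tested.

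Genes outside the lists were also among those with the largest differences. Higher in core were Akr1c18, a steroid-metabolizing reductase, with 10.34 and 10.48 in core and 8.39 and 8.60 in penumbra (1.91 ± 0.04), the tetraspanin Tspan11 (1.80 ± 0.02), the oxysterol hydroxylase Cyp39a1 (1.75 ± 0.09), the potassium channel beta subunit Kcnab3 (1.74 ± 0.03), Ly6d (1.60 ± 0.02), Lrg1 (1.42 ± 0.18), the phospholipase Pla2g4e (1.39 ± 0.04), Car3 (1.38 ± 0.36), Kazald1 (1.33 ± 0.18), Hspb3 (1.32 ± 0.04), Lurap1l (1.32 ± 0.02) and Acot5 (1.28 ± 0.03). A second probe of Tspan11 gave 0.88, and processed signals gave 1.99 for Car3. Lower in core were the nuclear factor Dach1 with 9.71 and 9.05 in core and 11.92 and 11.85 in penumbra (-2.50 ± 0.41) and the serpin Serpina9 (-2.48 ± 0.15). A second probe of Dach1 gave -1.26. These were the remaining genes among the 20 highest and the 20 lowest.

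Most reference genes differed little between the pieces. Hprt had 15.00 and 15.20 in core and 14.97 and 15.21 in penumbra (0.01 ± 0.03), and Ppia was at 0.08 ± 0.04. Of 11 measured housekeeping genes 0 were called, with a median of 0.01, and Gapdh was not matched by symbol. Ywhaz, at -0.48 ± 0.61, had 14.50 and 13.50 in core and 14.54 and 14.42 in penumbra, so a single core channel set its value. Of the Eph receptors and ephrins, which guide axons by graded expression, 0 of 16 measured genes were called, from Efnb3 at -0.81 ± 0.11 to Efna5 at 0.57 ± 0.01. Adcyap1, the PACAP precursor, was at -0.03 ± 0.02 and its receptor Adcyap1r1 at 0.19 ± 0.04.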

How the data were processed

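RNA was measured on 4 two-color Agilent arrays on 1 slide. The authors deposited the scanner output, with an intensity per spot and dye. Agilent Feature Extraction 11.0.1.1 made it, according to the submitters' processing notes and per the file headers. Median signals were corrected with normexp (offset 50), normalized by loess within and Aquantile between arrays in limma 3.58.1 (R 4.3.3), and the healthy channels were taken. Control spots and spots with non-uniformity or population outlier marks were dropped, spots of a probe were averaged, and the brightest probe stood for a gene. A feature counted as measured if both arrays of at least 1 piece had it well above background. Of 41174 probes, 23366 were named through RefSeq accessions without versions (GRCm38.p6), giving 33269 features, 16531 of them with a symbol. Called genes were chosen by size, and the naming rule took the 20 highest and 20 lowest called genes with a symbol and members of the lists, first those called and otherwise the brightest; further members were added where a group or gene needed a contrast, after their values were seen. The 44 lists held 563 entries for 529 genes, and 492 of these genes matched the array by symbol. The members and lists were chosen with earlier results of these data known. Promoter sequences came from RefSeq tables of GRCm38.p6. Slide and scan could not be tested as batches, since there was 1 of each. Alternatives changed the normalization, the background treatment, the filter, the probe rule and the dye pair used. Other software was numpy 2.4.6, pandas 2.3.3 and matplotlib 3.10.9 under Python 3.11.15.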

Additional observations from a re-analysis of the deposited data

Results flagged for a closer look

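In 5 genes called lower in healthy core, both dyes gave a lower level in healthy core than in healthy penumbra while both dyes gave a higher level in ischemic core than in ischemic penumbra. Of all 281 called features, 276 had a mean difference of the same sign in the ischemic pieces. Ccl4 had -1.79 in the healthy and 0.31 in the ischemic pieces. Cxcl1 had -1.50 and 0.43, Ccl2 had -1.41 and 0.28, Ccl3 had -1.37 and 0.045, and Gpr84 had -1.56 and 0.10. These are log2 differences of core minus penumbra. The difference between the tissue states was not tested, since each piece is 1 replicate.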

How the results depend on the processing

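Of 83 named calls, 71 held under each of the 10 alternatives that measured them, and 0 changed direction. Some alternatives could hardly end a call. Without the filter on dim probes all 281 calls stayed, and the limma fit, with the same difference and cutoff, lost 1. Calls left unmeasured by the filter on all 4 healthy channels, such as Cldn2, Calml4, Otx2 and F5, were not counted as ended. Agilent's processed signals gave 225 features higher and 669 lower in core, and 9 called chemokines. Spike-in scaling gave 131 higher, 9 called meningeal genes and 0 called oligodendrocyte genes. Median centring also gave 0 called oligodendrocyte genes, and quantile normalization of the healthy channels alone gave 1. Leaving out one dye pair gave 85 to 87 features higher and 292 to 372 lower in core, 15 to 16 choroid plexus genes, 16 to 18 striatal genes, 3 to 5 layer 4 genes, 5 meningeal genes, 2 to 3 oligodendrocyte genes and 5 to 6 chemokines. Named calls that ended were Bcl11b, Cd24a, Hapln2, Mobp and Stra6 with median centring, these and Dynlrb2, Meis2 and Spink8 with spike-in scaling, Mobp and Whrn with processed signals, Mobp with quantile normalization, Slc47a1 with the mean over probes, Cd24a, Dynlrb2, Hapln2, Kcnh5, Mobp and Whrn without core replicate 1 and penumbra replicate 3, and Stra6 and Tmem72 without core replicate 2 and penumbra replicate 4. The cause was not tested. Of 44 list medians, 11 changed sign among the 5 scalings, none of them a list described above as higher or lower in core. A limma fit over the 4 healthy channels, whose adjusted p-values measure only the spread between channels, gave 78 higher and 202 lower past an adjusted p of 0.05 and 1 log2. Signal near background limits genes such as Chat and Slc18a3, and 1 replicate of each piece limits every value. No paired analysis was possible because the pieces share no replicate number.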
